A study of Homo sapiens with 21 samples.

Results

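The genes described here are 52 genes of the cell division cycle, 28 that act in DNA replication in S phase and 24 that act in mitosis, out of 20423 genes in the deposited table. They were taken by symbol, and all 52 passed the filter on low values, a mean of at least 10 normalized counts over the libraries of a fit. A normalized count is the read count of a gene divided by 1 size factor per library. The cells were THP1, a human acute myeloid leukemia line of monocytic character, grown in culture and sequenced as messenger RNA. In the knockdown arm, IRF2BP2 was targeted by hairpins in the pLKO.1 vector, with 3 libraries labelled shRNA 1 and 3 labelled shRNA 2, against 2 libraries of an shRNA control. In the knockout arm, ATF7 or JDP2 was targeted with Lenti-CRISPRv2 constructs and cells were grown out as single-cell clones, with 2 clones of each knockout and 2 libraries of each clone, against 2 libraries of a knockout control. A single wild-type library completed the 19, and 2 libraries marked as low quality in the labels were not analysed here. A clone descends from 1 cell, so a difference between a knockout and its control can also be a difference between clones, and these cannot be told apart beyond the pair of clones. No label tells if the replicates are cultures grown apart, so p-values measure only the spread between these libraries. The study's title sets IRF2BP2 against the ATF7 and JDP2 heterodimer in inflammatory activation, and the comparisons below ask whether messages of the division cycle differed with it.

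Before S phase, the origin recognition complex, CDC6 and CDT1 load the MCM helicase onto replication origins, and CDC45 and the GINS complex then turn it into the active helicase. Transcription of these genes rises at the G1 to S border under E2F factors, while genes of mitosis are repressed by the DREAM complex in resting cells and rise later through B-MYB and FOXM1, acting at promoter elements that include the cell cycle genes homology region (CHR) and CCAAT boxes. A culture of a leukemia line that divides without synchrony holds cells of all phases. In bulk RNA, a lower level from fewer cells in a phase and a lower level per cell cannot be told apart.

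The libraries held 28650241 to 60196382 reads in genes. In 3 libraries, far more genes than elsewhere lay over 2-fold from their median, namely IRF2BP2 shRNA 1 replicate 3 (48.5%), JDP2 knockout clone 1 replicate 2 (38.2%) and IRF2BP2 shRNA 2 replicate 3 (25.6%), against 3.18 to 14.8% in the other 16. The targeted messages were read first, as a check of the labels. IRF2BP2 had 9456, 11109.7 and 9802 normalized counts in shRNA 1 and 12587, 16649 and 25651 in shRNA 2, against 16973 and 18382 in the shRNA control, so directions drawn from the knockdown include a library, shRNA 2 replicate 3, that goes against its label. ATF7 had 645, 511, 617 and 363 in the ATF7 knockout, against 299.9 and 537 in the knockout control. JDP2 had 3158, 5693, 4652 and 5368 in the JDP2 knockout, against 5085 and 3438 in the knockout control. Neither message was lower in its knockout, and where the edits lie was not read here, so the message checks nothing for the knockouts. Of 12 markers of monocytic leukemia cells all were detected in every library, with a summed level of 61228 to 231300 normalized counts. CD14 (2.16 to 157) and MPO (15.1 to 119) were low. Summed normalized counts of T cell (7.9 to 90.5), erythroid (0 to 57.9), epithelial (2.4 to 162) and stromal (31.2 to 543.8) markers were low, with CD3D at 0 in 15 libraries. Of the B cell markers, PAX5 (206.9 to 1669.8 normalized counts) and CD79A (51.0 to 1347 normalized counts) were detected in every library, and MS4A1 was at 0 in 15 libraries. Their part in the results was not tested.

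The promoters of both gene classes carried different letters. In the 300 bases around the start (250 before to 50 after, RefSeq, GRCh38.p14), 19 of the 25 S-phase genes with an entry (76%, 95% Wilson interval 56.6 to 88.5%) held an E2F spelling on either strand (TTCCCGC, or else TTCGCGC, or else TTGCCGC, or else TTGGCGC), against 4 of 18 mitotic genes (22.2%) and 13.1% of all 27305 promoters in the table. The CHR spellings (TTTGAA, or else TTCGAA) stood in 2 of 25 S-phase promoters (8%, 2.22 to 25.0%), 13 of 18 mitotic promoters (72.2%, 49.1 to 87.5%) and 16.6% of all promoters. CCAAT, on either strand, stood in 16 of 25 S-phase promoters (64%), 16 of 18 mitotic promoters (88.9%) and 35.7% of all promoters. MCM4, MCM5 and CCNE2 of the S-phase genes and AURKA, TTK, TPX2, BIRC5, UBE2C and FOXM1 of the mitotic genes were not matched. These matches are a description of letters, not of binding. The 200 bases before the start are printed below for 2 S-phase genes (ORC1 and CDC6) and 3 mitotic genes (CCNB2, PLK1 and CCNB1), 5′ to 3′ on the strand of the gene, with matched letters in capitals. CDC6, CCNB2 and PLK1 are textbook examples of each class, and ORC1 and CCNB1 were chosen after their values were seen, because they led the knockout comparisons. The windows are chr1:52404424-52404623 (ORC1, minus strand), chr17:40287679-40287878 (CDC6, plus strand), chr15:59104946-59105145 (CCNB2, plus strand), chr16:23678689-23678888 (PLK1, plus strand) and chr5:69166950-69167149 (CCNB1, plus strand).
ORC1: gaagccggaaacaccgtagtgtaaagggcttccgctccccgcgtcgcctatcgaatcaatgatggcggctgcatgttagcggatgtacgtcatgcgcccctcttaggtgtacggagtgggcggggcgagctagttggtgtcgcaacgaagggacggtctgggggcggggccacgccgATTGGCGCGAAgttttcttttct
CDC6: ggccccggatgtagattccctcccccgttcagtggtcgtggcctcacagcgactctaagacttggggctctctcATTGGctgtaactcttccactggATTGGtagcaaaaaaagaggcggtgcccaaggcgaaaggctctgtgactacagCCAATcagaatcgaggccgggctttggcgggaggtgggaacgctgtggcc
CCNB2: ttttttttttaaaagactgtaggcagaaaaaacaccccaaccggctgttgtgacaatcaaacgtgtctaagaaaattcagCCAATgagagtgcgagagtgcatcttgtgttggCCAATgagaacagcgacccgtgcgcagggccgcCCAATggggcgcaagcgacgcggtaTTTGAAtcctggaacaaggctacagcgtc
PLK1: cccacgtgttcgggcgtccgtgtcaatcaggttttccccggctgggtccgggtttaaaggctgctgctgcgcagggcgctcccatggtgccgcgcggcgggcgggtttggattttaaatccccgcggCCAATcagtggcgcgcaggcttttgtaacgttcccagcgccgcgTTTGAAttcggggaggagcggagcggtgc
CCNB1: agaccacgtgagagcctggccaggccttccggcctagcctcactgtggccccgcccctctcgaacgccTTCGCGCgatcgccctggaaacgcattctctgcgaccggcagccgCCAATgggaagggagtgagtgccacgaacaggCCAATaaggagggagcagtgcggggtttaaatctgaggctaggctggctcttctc
In the ORC1 window an E2F match on each strand (first bases at -22 and -19) and a reversed CCAAT box (at -23) overlap, so the capitals merge into 1 run. CDC6, the loading factor of the MCM helicase, showed 3 CCAAT matches, and its single match to the E2F letters lies outside the 200 bases printed. CCNB2 and PLK1 both carried TTTGAA at -29 downstream of their CCAAT matches, while CCNB1 had no CHR letters in the window and held TTCGCGC at -132.

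Levels of the 52 genes differed widely between genes and little between most libraries. Per kilobase of exon, the median over the 5 control libraries was highest for PCNA, the sliding clamp of the replication fork (15000.0 normalized counts per kb), followed by MCM7 (6583), CDC20 (5299) and MCM2 (5292). It was lowest for NUSAP1 (6.84), CCNE2 (56.8), with POLE2 next. NUSAP1, a microtubule-bundling protein of the spindle, had only 11 to 42 reads in any library, and 62.2% of its exon bases are shared on the same strand with AC087721.2 in GENCODE v29, so its reads could be split or dropped by the counting. Exons of RRM2 (20.2%), BUB1B (10.2%), CENPA (6.96%) and FEN1 (1.98%) also overlap a gene on the same strand. Those of MCM2 (22.7%) and FOXM1 (15.9%) overlap genes on the opposite strand, which matters only for counting without regard to strand. Named pseudogenes in GENCODE v29 exist for PCNA, RRM2, TYMS, RFC3, FEN1, CCNB2, CDC20, AURKA, BUB1, MKI67 and UBE2C, so their counts are uncertain too. Expression of the 52 genes varied with a median SD of 0.44 (log2) over the 19 libraries, against 0.56 over the 13021 genes with a mean of at least 10, and of 0.30 against 0.41 without the 3 libraries that stood apart. CDT1 varied most (SD 0.98, 30.6-fold between its highest and lowest library), and AURKA least (SD 0.23, 1.82-fold). For 49 of the 52 genes the lowest library was one of the 3 that stood apart, the exceptions being CDC45, RRM2 and CCNB1. The same count was not made over all genes, of which 25.6 to 48.5% lay over 2-fold from their median in these libraries. It is therefore not a trait shown for the 52 genes.

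**Figure D1:**
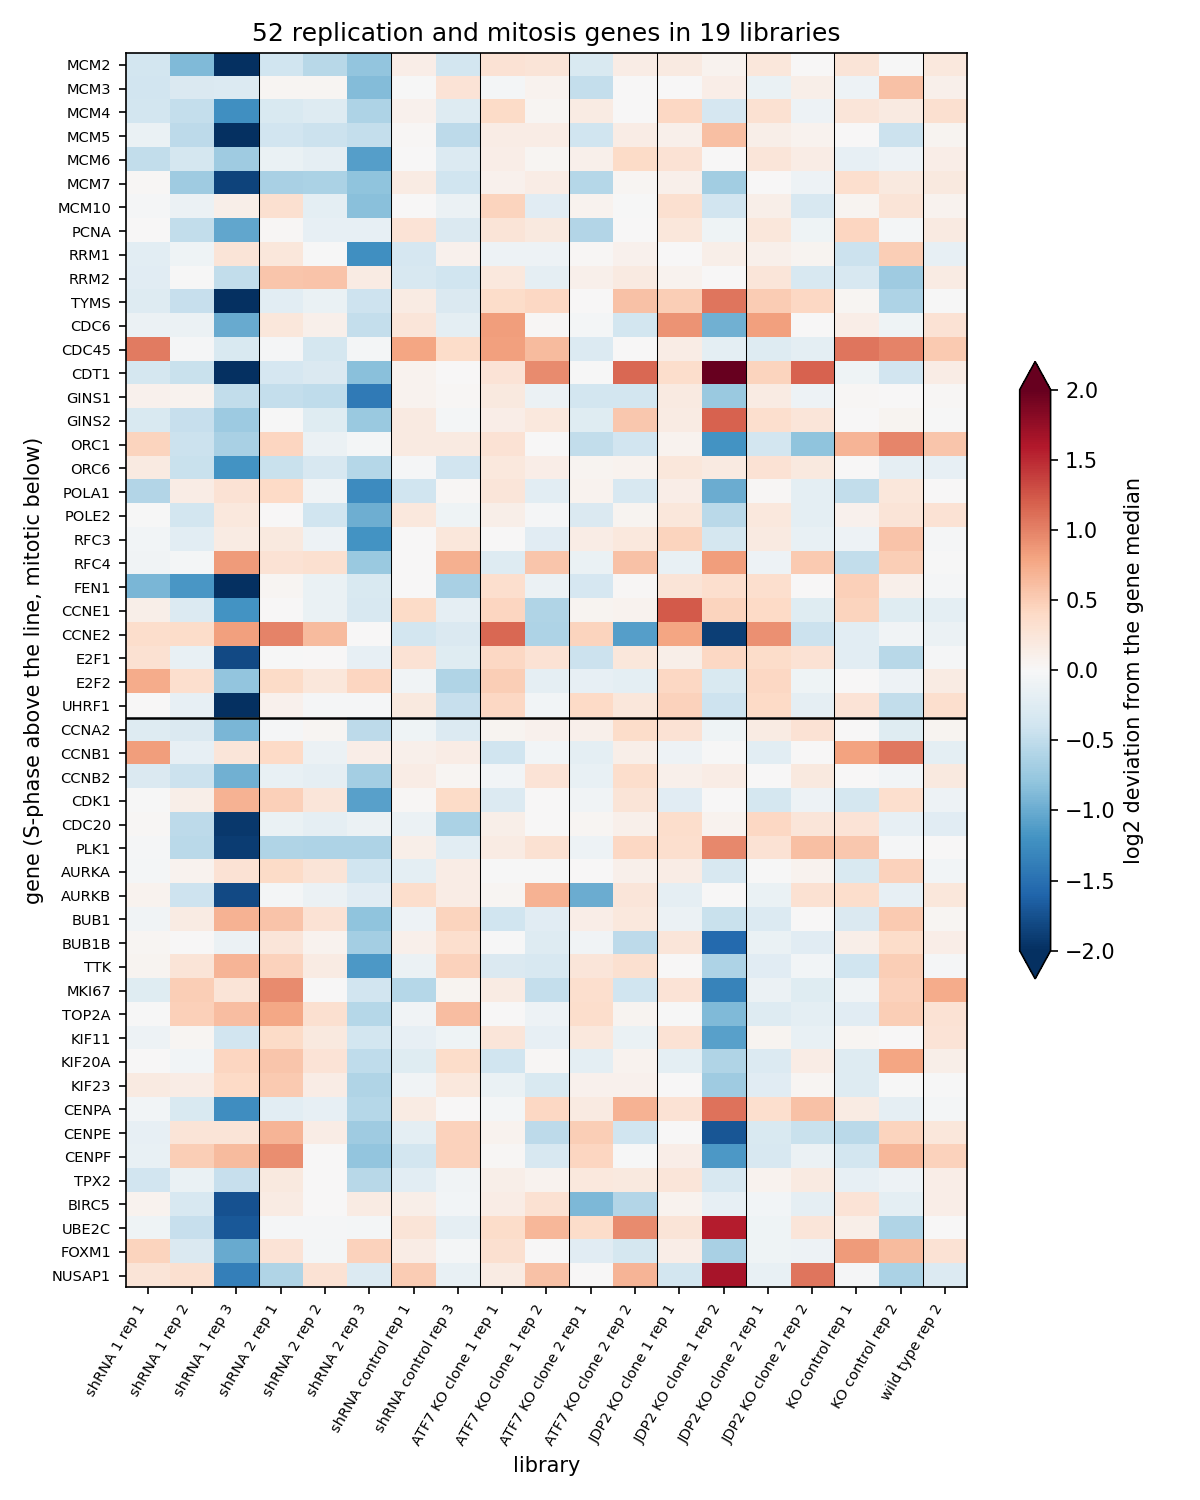
Each cell is the log2(normalized count + 1) of 1 gene in 1 library less the median of that gene over 19 libraries, with S-phase genes above the black line and mitotic genes below, and colours ending at 2 and -2. The columns shRNA 1 replicate 3, shRNA 2 replicate 3 and JDP2 KO clone 1 replicate 2 hold the deepest colours, and CDT1 is deep blue in shRNA 1 replicate 3 (1431 normalized counts) and deep red in JDP2 KO clone 1 replicate 2 (43791).

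Averaged over the genes of a class, the deviation of S-phase genes from the gene medians was lower on average in the libraries labelled IRF2BP2 knockdown. Single knockdown libraries ran from -0.91 to 0.03. Libraries of the other groups ran from -0.15 (shRNA control replicate 3) to 0.30 (ATF7 knockout clone 1 replicate 1), so the ranges overlapped. S-phase genes averaged -0.32 ± 0.36 (SD, n = 6) in the knockdown libraries and -0.04 ± 0.15 (SD, n = 2) in the shRNA control. Mitotic genes averaged -0.10 ± 0.28 in the knockdown libraries and 0.04 ± 0.09 in the shRNA control. The lowest S-phase means were -0.91 in shRNA 1 replicate 3 and -0.56 in shRNA 2 replicate 3, and without those libraries the mean was -0.11 ± 0.13 (SD, n = 4). The mitotic mean exceeded the S-phase mean in all 6 knockdown libraries, by 0.06 to 0.48, but in the shRNA control it did so in 1 of 2 (-0.09 and 0.26). It did so too in knockout control replicate 2 (0.13), both libraries of ATF7 knockout clone 2 (0.13 and 0.05) and JDP2 knockout clone 2 replicate 2 (0.10). In the remaining knockout-arm libraries and wild type it was the lower of the pair. In the knockouts, the S-phase mean was 0.07 ± 0.17 (SD, n = 4) for ATF7 and 0.12 ± 0.17 (SD, n = 4) for JDP2, against 0.06 ± 0.01 (SD, n = 2) in the knockout control. The mitotic mean was 0.04 ± 0.05 for ATF7 and -0.04 ± 0.16 for JDP2, against 0.10 ± 0.12 in the knockout control, and 0.10 in wild type. JDP2 knockout clone 1 replicate 2 was the lowest knockout library for mitotic genes (-0.25).

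**Figure D2:**
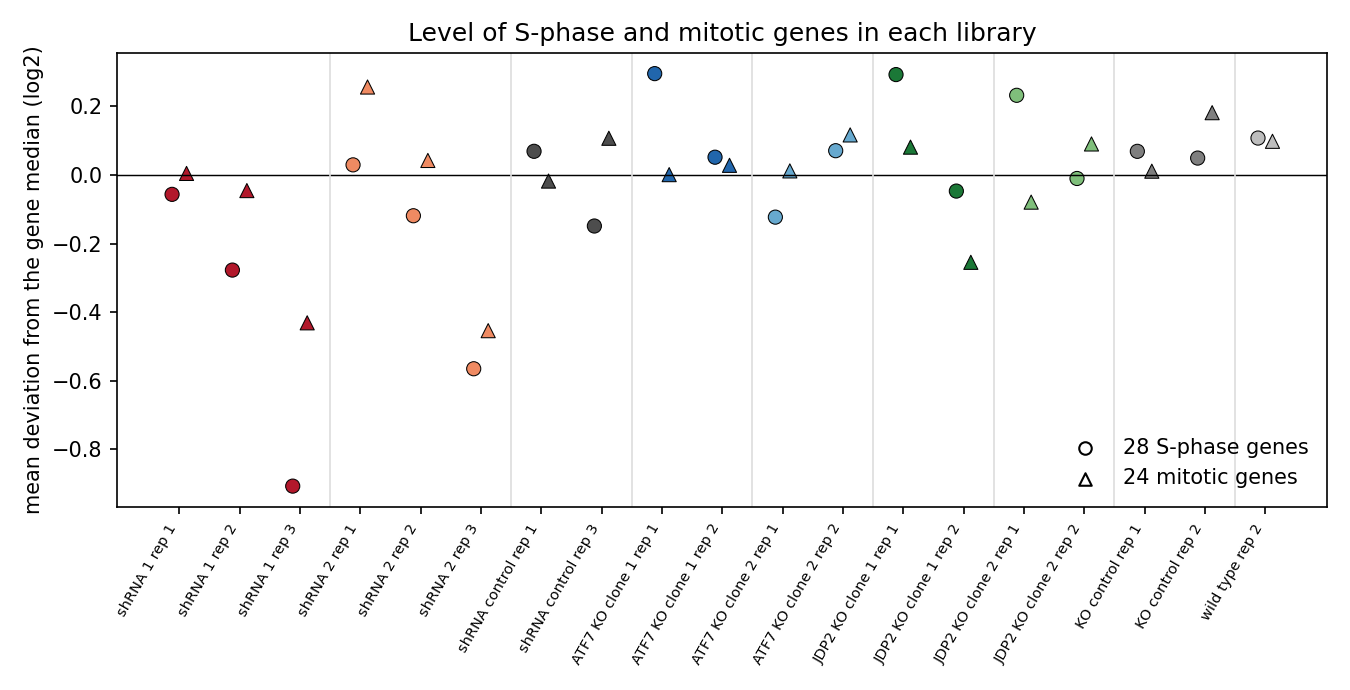
Points are the mean over 28 S-phase genes (circles) and 24 mitotic genes (triangles) of the log2 deviation from the gene median, 1 pair per library, coloured by group. The shRNA 1 replicate 3 and shRNA 2 replicate 3 libraries lie lowest. Triangles lie above circles in all 6 knockdown libraries and in some libraries of both control groups and both knockouts.

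Base composition moved with these deviations, in opposite directions in different libraries. Over the 52 genes, the correlation between the deviation in a library and the GC percent of the longest transcript was -0.77 in shRNA 1 replicate 3 and 0.47 in JDP2 knockout clone 1 replicate 2, against -0.48 over 12625 genes in the first library and 0.46 in the second. In shRNA 1 replicate 3, the 22 genes under 45% GC had a median deviation of 0.23 and the 10 genes of at least 55% GC one of -1.87, with 0 of those 10 above their median. In shRNA 2 replicate 3, the other low library, the correlation over the 52 genes was 0.38, and both GC classes were low (-0.75 under 45% GC and -0.35 from 55% GC). In JDP2 knockout clone 1 replicate 2 the medians were -0.49 under 45% GC and 0.08 from 55% GC. S-phase transcripts were richer in GC (median 48.8%, 36.9 to 64.9%) than mitotic transcripts (43.8%, 35.3 to 57.9%). Across the 52 genes, the log2 change correlated with GC at -0.45 for the knockdown, 0.08 for the ATF7 knockout and 0.28 for the JDP2 knockout. The genes of a library share its preparation and depth, so these correlations describe libraries and carry no p. Transcript length moved with the deviations too. Over the 52 genes, its correlation (log2 length) was 0.32 in shRNA 1 replicate 3 and -0.60 in JDP2 knockout clone 1 replicate 2. The parts of GC and length in the differences below were not tested.

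**Figure D3:**
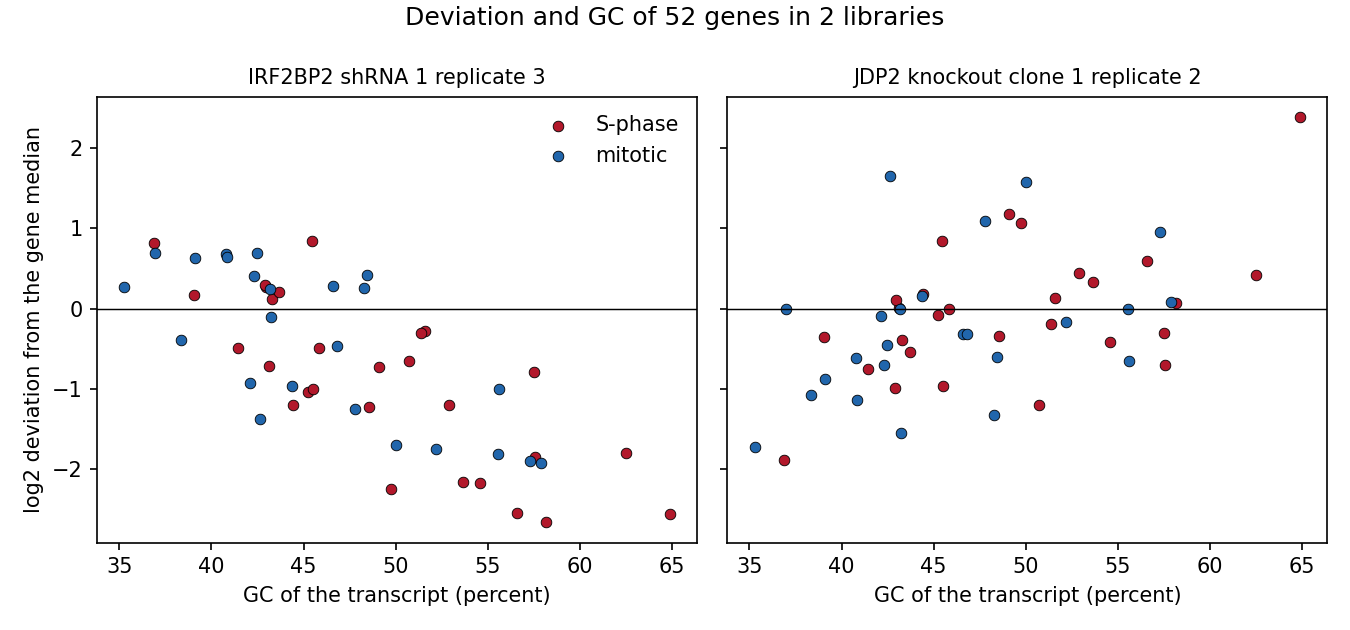
The log2 deviation of each gene from its median is plotted against the GC percent of its longest transcript in the 2 libraries furthest from the rest, with S-phase genes in red and mitotic genes in blue. Points fall to the right in shRNA 1 replicate 3 (correlation -0.77) and rise to the right in JDP2 knockout clone 1 replicate 2 (0.47).

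The knockdown comparison asked whether division cycle messages differed when IRF2BP2 was targeted. In the 6 knockdown libraries no S-phase or mitotic gene passed the test, in a comparison in which 1.79% of 12738 genes did. The test was limma on log2(normalized count + 1) with Benjamini-Hochberg adjustment over all genes and a threshold of 0.05. At an unadjusted p under 0.05, 1 of 52 genes was higher (CCNE2) and 0 were lower, where 8.58% of all genes were higher and 5.4% lower in that way (14% in either direction). The edgeR quasi-likelihood test on the recovered reads called 0 of 52 (0.848% of all genes) and DESeq2 called 0 of 52 (5.38% of all genes). The median log2 change was -0.32 over S-phase genes, with 24 of 28 negative, and -0.09 over mitotic genes, with 17 of 24 negative. Over all 12738 genes tested it was -0.03, with 6638 negative. Without the 3 libraries that stood apart, the S-phase median was -0.16 and the mitotic median 0.06.

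Among the licensing and helicase genes, the 6 MCM2-7 subunits had log2 changes of -0.36 (MCM6) to -0.82 (MCM2). MCM2 (chromosome 3, 127598223 to 127622436, plus strand) had 18322, 12921 and 3757 normalized counts in shRNA 1 and 18000.0, 16185 and 13727 in shRNA 2, against 25943 and 18440.4 in the shRNA control. All 6 knockdown values lay below both controls, with a log2 change of -0.82 ± 0.55 SE and a limma adjusted p of 0.558. Without shRNA 1 replicate 3 the MCM2 log2 change was -0.48. CDT1 (chromosome 16, 88803213 to 88809258, plus strand), which brings the MCM helicase to origins, had 6553, 6168 and 1431 in shRNA 1 and 6621, 6873 and 4709.9 in shRNA 2, against 8796 and 8380.1 in the shRNA control. Again no knockdown library reached a control, and the difference was widest in shRNA 1 replicate 3, with a log2 change of -0.84 ± 0.53 SE and a limma adjusted p of 0.534. Without that library the CDT1 log2 change was -0.49. CDC45 (-0.52), GINS1 (-0.50) and GINS2 (-0.48), partners of MCM in the active helicase, CDC6 (-0.25), ORC1 (-0.24), ORC6 (-0.26) and MCM10 (-0.06) had negative log2 changes that did not pass. Among genes of the moving fork, PCNA had 19664, 13944 and 9545 in shRNA 1 and 19938, 17555 and 17495 in shRNA 2, against 23576 and 16072 in the shRNA control. These ranges overlapped (log2 change of -0.29 ± 0.39 SE and a limma adjusted p of 0.788). The clamp loaders RFC3 and RFC4, the polymerase subunits POLA1 and POLE2 and the flap nuclease FEN1 had log2 changes of -0.46 (FEN1) to 0.00 (POLA1). Of the nucleotide enzymes, RRM2 stood at 0.45, RRM1 at -0.05 and TYMS at -0.55.

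CCNE2, a cyclin E that with CDK2 starts S phase, went the other way from most S-phase genes. It had 372, 375 and 512 normalized counts in shRNA 1 and 579, 450.5 and 291 in shRNA 2, against 225 and 237 in the shRNA control. Every knockdown library was above both shRNA controls, and also above the knockout control (249.9 and 278) and wild type (269), with a log2 change of 0.86 ± 0.32 SE and a limma adjusted p of 0.242. In every knockout clone CCNE2 was above all 5 controls in replicate 1 and below them in replicate 2. It had 645 and 189 (ATF7 clone 1), 396 and 136 (ATF7 clone 2), 501 and 78.3 (JDP2 clone 1) and 549 and 215 (JDP2 clone 2). The highest library of all was ATF7 knockout clone 1 replicate 1. CCNE2 was called against all 5 control libraries (0.74, limma adjusted p = 0.0290, with 12.3% of all genes called) and without the 3 libraries that stood apart (0.92, adjusted p = 0.0318, with 10.1% called), over a range of adjusted p from 0.0200 to 0.987 across its alternatives. E2F2, an activating E2F, was called as well without those 3 libraries (0.76, adjusted p = 0.0448) and stood at 0.56 with them, and was called in 1 of 21 alternatives. E2F2 here, and TYMS, FEN1 and BIRC5 below, were singled out after their values were seen. CCNE1 (-0.40), E2F1 (-0.33) and UHRF1 (-0.25), which maintains DNA methylation behind the fork, had negative values. About 37.1% of CCNE2 exon bases lie opposite INTS8, and without a stated strand setting their reads cannot be told apart.

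Among the mitotic genes, the largest differences in the knockdown were in kinases and cyclin B2. PLK1 (chromosome 16, 23677656 to 23690367, plus strand), a kinase of mitotic entry and spindle formation, had 12139.5, 8516 and 3309 in shRNA 1 and 8136, 8086 and 8058 in shRNA 2, against 13422 and 10704 in the shRNA control. One shRNA 1 library lay between the controls (log2 change of -0.67 ± 0.44 SE and a limma adjusted p of 0.543). AURKB (chromosome 17, 8204733 to 8210600, minus strand), the kinase of the chromosomal passenger complex, had 4627, 3282 and 1255 in shRNA 1 and 4273, 4065 and 3756 in shRNA 2, against 5632 and 4869.9 in the shRNA control. All 6 lay below both controls (log2 change of -0.68 ± 0.45 SE and a limma adjusted p of 0.557). Without shRNA 1 replicate 3 the log2 change was -0.40 for AURKB and -0.43 for PLK1. CCNB2 (chromosome 15, 59105078 to 59125045, plus strand), a cyclin B partner of CDK1, had 3953, 3607 and 2484 in shRNA 1 and 4377, 4286 and 3018 in shRNA 2, against 5403 and 4978 in the shRNA control. Its 6 values lay below all 5 control libraries of the study (log2 change of -0.55 ± 0.32 SE and a limma adjusted p of 0.485), and without the 3 libraries that stood apart its log2 change was -0.36. MKI67, the proliferation marker, had 7073, 11749.9 and 10046 in shRNA 1 and 16064, 8383 and 6460.0 in shRNA 2, against 5649 and 8690.3 in the shRNA control. CDK1, the kinase of mitotic entry, had 1946, 2123 and 3169 in shRNA 1 and 2715, 2302 and 924 in shRNA 2, against 1990.3 and 2561 in the shRNA control. Both overlapped their controls, with log2 changes of 0.44 ± 0.40 SE for MKI67 and -0.13 ± 0.41 SE for CDK1. The other 19 mitotic genes had log2 changes of -0.50 (CENPA) to 0.14 (CENPF). Genes whose knockdown and shRNA control libraries did not overlap numbered 1 higher and 2 lower of 28 S-phase genes, and 0 higher and 3 lower of 24 mitotic genes, where 11.1% of all genes were higher and 11.2% lower in that way.

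The ATF7 knockout and the JDP2 knockout were each set against the same 2 knockout control libraries, so their values are given side by side and are not independent of each other. Neither called any of the 52 genes with limma, where 0.25% of 13208 genes were called for ATF7 and 0.674% for JDP2. At an unadjusted p under 0.05, ATF7 knockout had 1 S-phase gene higher and 2 lower and 0 mitotic genes higher and 2 lower, where 1.76% of all genes were higher and 5.32% lower (7.09% in all). JDP2 knockout had 3 S-phase genes higher and 2 lower and 0 mitotic genes higher and 2 lower, where 8.83% of all genes were higher and 7.96% lower (16.8% in all). With edgeR the number called was 0 in both (0.295% of all genes for ATF7 and 0.825% for JDP2). DESeq2 called CCNB1 for ATF7 (2% of all genes) and 5 genes for JDP2 (5% of all genes), namely ORC1, CDC45, CCNB1 and FOXM1 as lower and TYMS as higher. The median log2 change was 0.00 over S-phase genes and -0.06 over mitotic genes for ATF7, against 0.04 over all genes, and 0.01 and -0.14 for JDP2, against 0.00 over all genes.

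ORC1 (chromosome 1, 52372829 to 52404459, minus strand), the largest subunit of the origin recognition complex, had the most negative log2 change of the S-phase genes in both. It had 2109.8 and 1730.1 normalized counts (clone 1) and 1228 and 1326 (clone 2) with ATF7 knocked out, and 1810.0 and 753 (clone 1) and 1348 and 988 (clone 2) with JDP2 knocked out, against 2769 and 3421 in the knockout control. Every knockout library lay below both controls, and the JDP2 libraries also lay below shRNA control (1967 and 1955) and wild type (2530.1). The log2 change was -0.98 ± 0.35 SE for ATF7 (limma adjusted p = 0.481) and -1.41 ± 0.35 SE for JDP2 (adjusted p = 0.114). Set against all 5 controls, ORC1 was called for JDP2 (-1.09, adjusted p = 0.0297, with 7.08% of all genes called), over a range of adjusted p from 0.0163 to 0.776 across its alternatives. CDC45 (chromosome 22, 19479459 to 19520612, plus strand) had 1481 and 1288 (clone 1) and 691 and 834 (clone 2) with ATF7 knocked out, and 929.8 and 731 (clone 1) and 696 and 728 (clone 2) with JDP2 knocked out, against 1757 and 1665 in the knockout control. All 8 knockout values lay below both controls, and those of JDP2 below all 5 controls, the lowest of which was 1071. The log2 change was -0.74 ± 0.31 SE for ATF7 (limma adjusted p = 0.641) and -1.16 ± 0.31 SE for JDP2 (adjusted p = 0.14), and -0.87 for JDP2 against all 5 controls (adjusted p = 0.0399), over a range of adjusted p from 0.0206 to 0.714 across its alternatives for JDP2. For ATF7 against all 5 controls it was -0.45.

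CDT1 had positive log2 changes in both knockouts. It had 10156 and 16206 (clone 1) and 8305 and 18649 (clone 2) with ATF7 knocked out, and 10750.5 and 43791 (clone 1) and 11446 and 18952 (clone 2) with JDP2 knocked out, against 7915 and 6451 in the knockout control. All 8 values exceeded both controls. Within every clone the replicate 2 library was higher than the replicate 1 library, while in the knockout control it was the lower. The highest value was in JDP2 clone 1 replicate 2. The log2 change was 0.82 ± 0.51 SE for ATF7 (limma adjusted p = 0.777) and 1.32 ± 0.51 SE for JDP2 (adjusted p = 0.248), or 0.89 for JDP2 without that library. TYMS, which makes thymidylate, was above both controls in all 4 JDP2 libraries (10304, 15350.5, 10415 and 9759, against 7550.3 and 4785 in the knockout control), with a log2 change of 0.91 ± 0.29 SE and a limma adjusted p of 0.205. It was called in 2 of 23 alternatives, against all 5 controls (0.76, limma adjusted p = 0.0408) and with DESeq2 (0.89, adjusted p = 0.0492), though 39.2% of its exon bases lie opposite ENOSF1. RRM2, the regulated subunit of ribonucleotide reductase, stood at 0.59 for ATF7 and 0.51 for JDP2, and E2F1 at 0.51 and 0.69. The MCM2-7 subunits were split, with MCM3 (-0.35 and -0.21) and MCM7 (-0.34 and -0.44) lowest and MCM6 (0.30 and 0.30) and MCM5 (0.23 and 0.43) highest. MCM2 had 28878, 28259, 19263 and 26220.1 in the ATF7 libraries and 27016, 25004, 27667 and 23733 in the JDP2 libraries, against 28461 and 23582 in the knockout control. PCNA had 23318, 22377, 13078 and 19570.0 in the ATF7 libraries and 22989.5, 18483, 22775 and 18430.1 in the JDP2 libraries, against 26305 and 19092 in the knockout control. Both overlapped their controls, with log2 changes of -0.03 ± 0.26 SE and -0.01 ± 0.26 SE for MCM2 and of -0.23 ± 0.29 SE and -0.12 ± 0.29 SE for PCNA. The S-phase genes not named here had log2 changes of -0.31 (FEN1) to 0.35 (UHRF1) for ATF7 and -0.25 (POLE2) to 0.45 (GINS2) for JDP2.

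CCNB1 (chromosome 5, 69167010 to 69178245, plus strand), the cyclin B1 that activates CDK1, had the smallest adjusted p of the 52 genes in both comparisons. It had 2130.2 and 2685 normalized counts (clone 1) and 2455 and 3033 (clone 2) with ATF7 knocked out, and 2601 and 2803 (clone 1) and 2418 and 2803 (clone 2) with JDP2 knocked out, against 4923 and 5818 in the knockout control. The 8 knockout libraries lay together below both of those controls, but across the shRNA control (2999 and 3103) and wild type (2440.0). The log2 change was -1.07 ± 0.23 SE for ATF7 (limma adjusted p = 0.11) and -1.01 ± 0.23 SE for JDP2 (adjusted p = 0.0829), and it moved to -0.52 and -0.46 against all 5 controls. With limma, CCNB1 was the 1 gene of 52 called for ATF7 without the JDP2 clone 1 replicate 2 library (0.753% of all genes called) and with the replicate block (0.56%). It was also the 1 gene called for JDP2 with equal totals (0.971%), quantile normalization (0.712%), array weights (1.4%) and the replicate block (1.22%). FOXM1 (chromosome 12, 2857681 to 2877155, minus strand), the forkhead factor of late cell cycle genes, had 3927 and 3158 (clone 1) and 2712 and 2480.0 (clone 2) with ATF7 knocked out, and 3467 and 2014 (clone 1) and 2979 and 2949 (clone 2) with JDP2 knocked out, against 5696 and 4888 in the knockout control. Here too the knockout libraries were below these controls and overlapped shRNA control (3487 and 3061) and wild type (3855). The log2 change was -0.80 ± 0.28 SE for ATF7 (limma adjusted p = 0.462) and -0.91 ± 0.28 SE for JDP2 (adjusted p = 0.194), and -0.44 and -0.55 against all 5 controls.

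UBE2C (chromosome 20, 45812576 to 45816957, plus strand), the ubiquitin-conjugating enzyme of the anaphase-promoting complex, had 3185 and 3893 (clone 1) and 3167 and 4715 (clone 2) with ATF7 knocked out, and 2953 and 7341 (clone 1) and 2314 and 2914 (clone 2) with JDP2 knocked out, against 2661 and 1627 in the knockout control. The ATF7 libraries lay above all 5 controls, while 1 JDP2 library lay between the knockout controls. The log2 change was 0.83 ± 0.41 SE for ATF7 (limma adjusted p = 0.724) and 0.74 ± 0.41 SE for JDP2 (adjusted p = 0.38). Without knockout control replicate 2 it was 0.47 for ATF7. NUSAP1 had 24.8, 33.6, 22 and 36 in the ATF7 libraries and 16.9, 70.9, 19.8 and 47.1 in the JDP2 libraries, against 21.7 and 13.8 in the knockout control, at a level of few reads. Its log2 change was 0.69 for ATF7 and 0.88 for JDP2, or 0.51 for JDP2 without clone 1 replicate 2. PLK1 stood at -0.06 for ATF7 and 0.29 for JDP2, CCNB2 at 0.13 and 0.15, AURKB at -0.10 for both, and the mitotic genes not named here at -0.39 (KIF20A) to 0.28 (CCNA2) for ATF7 and -0.50 (KIF20A) to 0.28 (CCNA2) for JDP2. CDK1 had 1614, 1967, 1854 and 2346 in the ATF7 libraries and 1667, 1954, 1525 and 1829.7 in the JDP2 libraries, against 1529 and 2455 in the knockout control. MKI67 had 9419, 6051, 10559.7 and 6331 in the ATF7 libraries and 10188, 3338, 7759 and 7076 in the JDP2 libraries, against 7995 and 11551 in the knockout control. Their log2 changes were -0.01 and -0.16 for CDK1 and -0.29 and -0.55 for MKI67. Spindle checkpoint and kinetochore genes BUB1, BUB1B, TTK, CENPE and CENPF had negative log2 changes in both, from -0.05 (CENPE) to -0.46 (BUB1B) for ATF7 and from -0.27 (TTK) to -0.66 (BUB1B) for JDP2. CENPA, the centromeric histone, stood at 0.32 and 0.58. Genes whose libraries did not overlap those of the knockout control numbered 4 higher and 3 lower of 28 S-phase genes and 4 higher and 3 lower of 24 mitotic genes for ATF7, where 7.82% of all genes were higher and 10.6% lower. For JDP2 they numbered 8 higher and 3 lower of 28 and 2 higher and 2 lower of 24, where 13% of all genes were higher and 13.8% lower.

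**Figure D4:**
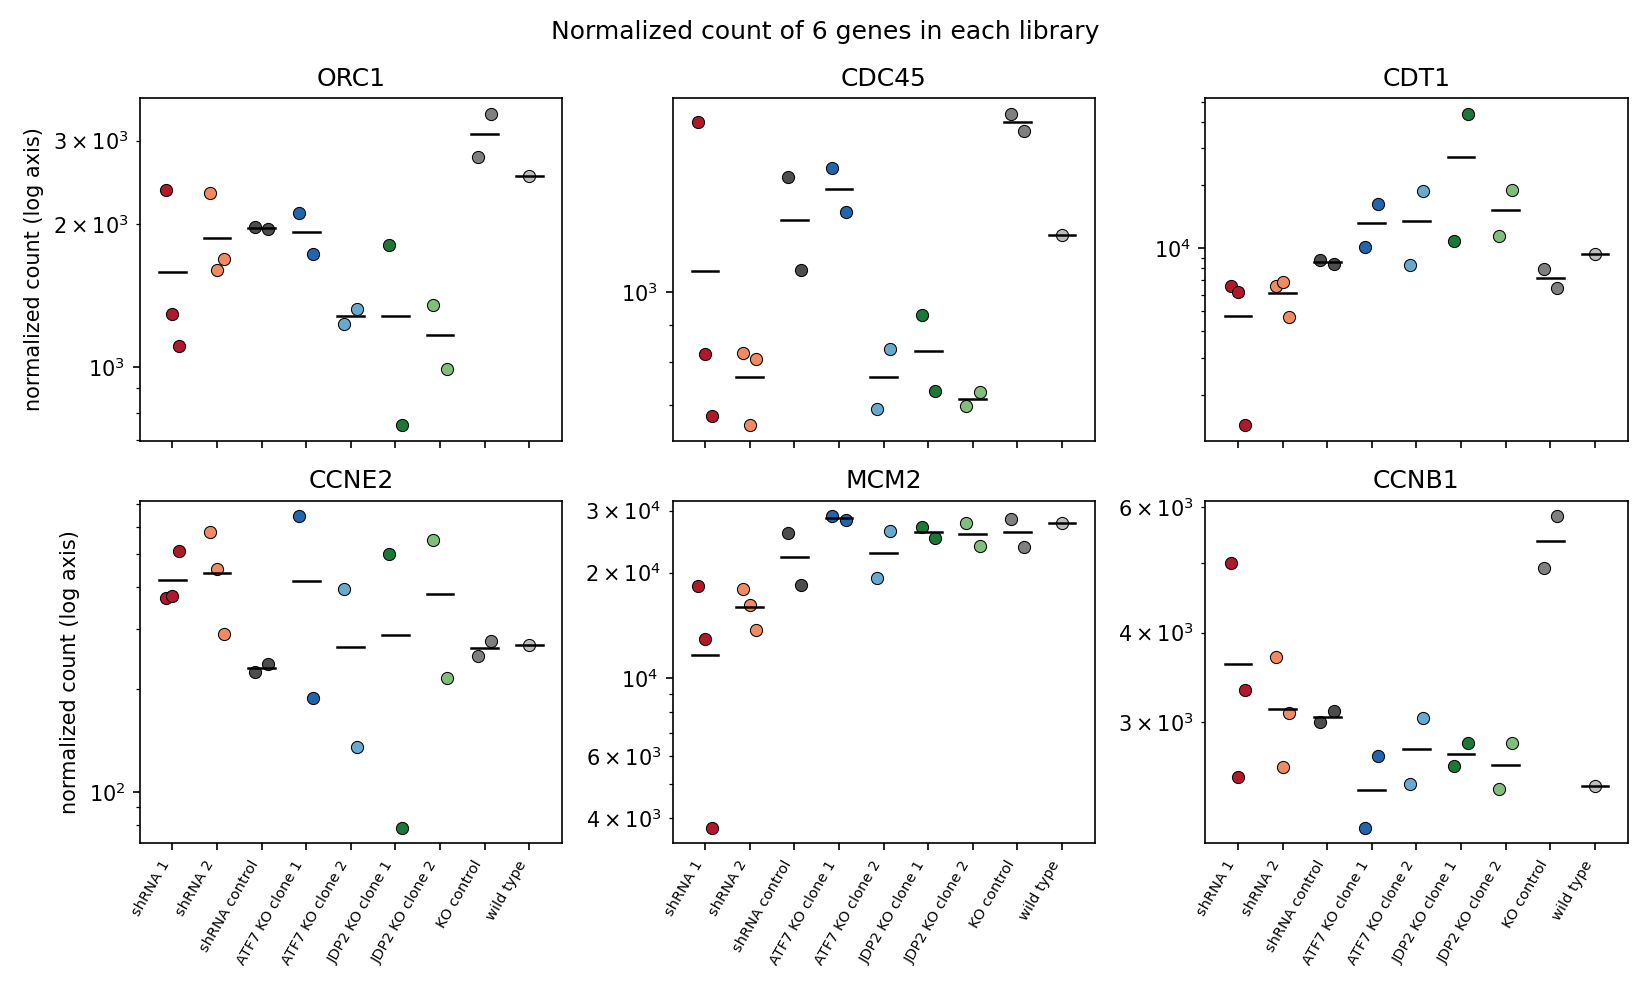
Normalized counts of 6 genes on log axes, with 1 point per library and a bar at the group mean, groups running from the targeted groups to their controls within each arm. ORC1 and CDC45 lie lower in the JDP2 KO clones than in all controls, CCNE2 lies higher in the shRNA groups than in all controls, and the KO control holds the 2 highest control values of CCNB1 (4923 and 5818).

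**Figure D5:**
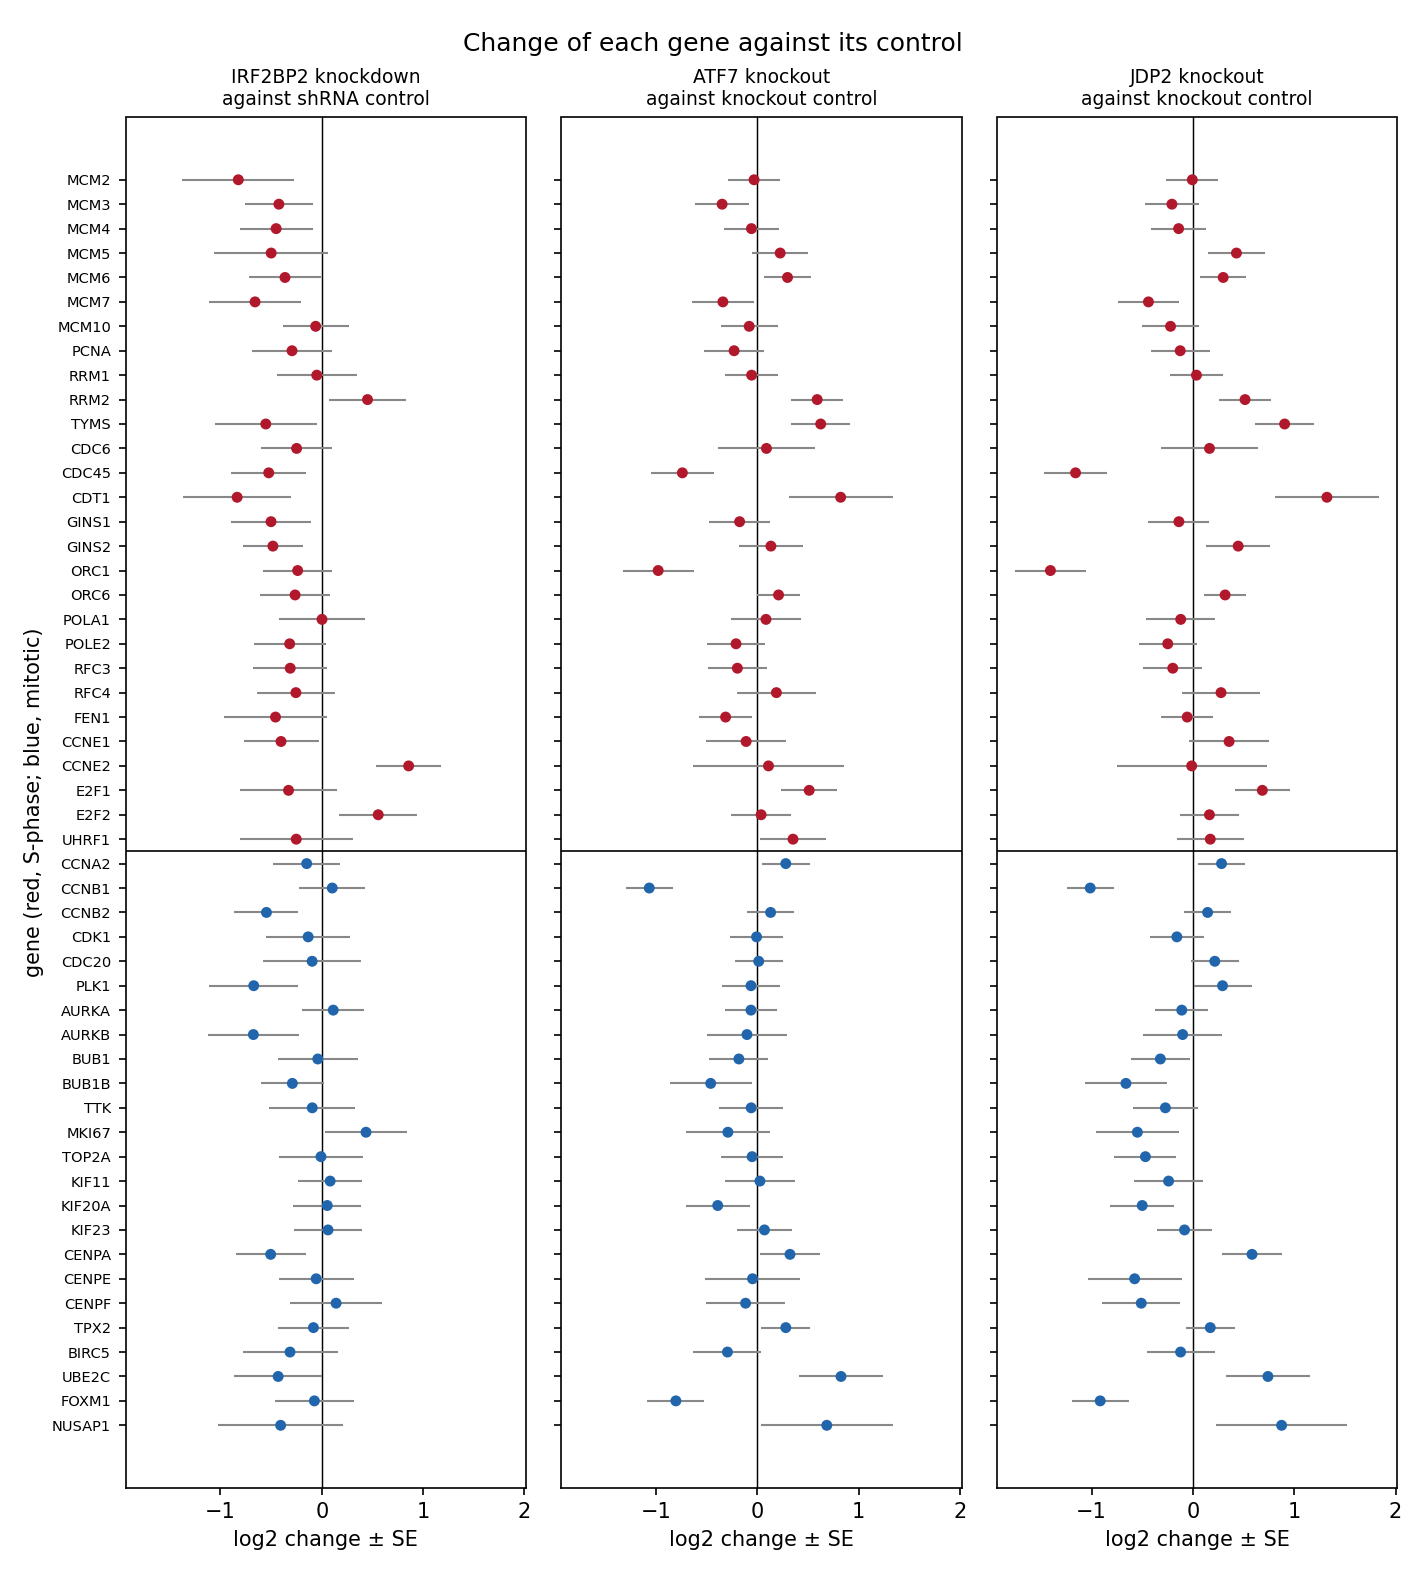
Log2 change of each gene with its SE from limma for the knockdown and both knockouts, S-phase genes in red and mitotic genes in blue. Most S-phase points lie left of 0 for the knockdown (24 of 28, where 6638 of all 12738 genes tested were negative). ORC1, CDC45, CCNB1 and FOXM1 lie furthest left for both knockouts.

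The JDP2 and ATF7 knockouts were then compared directly, without the shared controls. No gene of the 52 was called by limma, edgeR or DESeq2, and 0 passed an unadjusted p under 0.05, where limma and edgeR called 0% of all genes, DESeq2 0.0688%, and 2.19% passed an unadjusted p under 0.05. The log2 change ran from -0.43 (ORC1) to 0.50 (CDT1) for S-phase genes and from -0.53 (CENPE) to 0.36 (PLK1) for mitotic genes. It correlated with GC at 0.52 over the 52 genes. No gene of the 52 had JDP2 and ATF7 libraries that did not overlap, where 1.52% of all genes were higher and 0.886% lower in that way. For ORC1 the log2 change was -0.43 ± 0.29 SE, and for CDC45 -0.42 ± 0.25 SE.

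Hairpins and clones of one target were compared with the same fit and a group for each. Between hairpins, FEN1, the flap nuclease of lagging-strand synthesis, differed most, with 4702, 4195 and 3697 normalized counts in shRNA 2 and 2425, 2046 and 1026 in shRNA 1 (log2 change of 1.28 ± 0.37 SE and a limma adjusted p of 0.589). Its shRNA 2 values all exceeded those of shRNA 1, and it was the 1 gene of 52 at an unadjusted p under 0.05, where 7.2% of all genes passed. No gene of the 52 was called by limma (0% of all genes), edgeR (0%) or DESeq2 (0.189%). Between ATF7 clones, BIRC5, the survivin subunit of the passenger complex, had 2436 and 3045 in clone 2 and 5039.9 and 5649 in clone 1 (log2 change of -0.97 ± 0.30 SE and a limma adjusted p of 0.389), and CDC45 had a log2 change of -0.86 ± 0.28 SE. These 2 genes passed an unadjusted p under 0.05, where 6.62% of all genes did. Limma (0.303% of all genes) and edgeR (0.197%) called 0 of 52, and DESeq2 called BIRC5 (1.82% of all genes). Between JDP2 clones, 0 of 52 were called by limma (0.136% of all genes), edgeR (0.121%) or DESeq2 (0.416%), and 0 passed an unadjusted p under 0.05, where 2.48% did.

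The knockdown effect was compared with the mean knockout effect by an interaction contrast over both arms. Limma called 0 of 52 genes (1.41% of 13057 genes), edgeR 0 (1.25%) and DESeq2 CCNB1 (5.92%). At an unadjusted p under 0.05, 4 genes passed, where 17.1% of all genes did. They were CCNB1 (1.14 ± 0.36 SE), CDT1 (-1.91 ± 0.76 SE), TYMS (-1.32 ± 0.59 SE) and CENPA (-0.96 ± 0.44 SE), on the log2 scale as knockdown minus knockout. CDT1 had log2 changes of -0.84 in the knockdown, 0.82 in the ATF7 knockout and 1.32 in the JDP2 knockout, and TYMS of -0.55, 0.63 and 0.91. Neither passed after adjustment in the interaction (limma adjusted p = 0.201 and 0.258), and CDT1 was called with the replicate block (adjusted p = 0.0485, with 5.1% of all genes called). The S-phase median of this contrast was -0.31 and the mitotic median 0.07. With trimmed mean scaling (TMM) they were -0.09 and 0.29, while the median of all genes stood at 0.23 in place of 0.02.

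Other genes of the same processes were read from lists of 50 replication genes, 62 mitosis genes (61 tested) and 34 cell cycle regulators (33 tested). In the knockdown 0 were called, where 196 of 12738 genes were called higher and 32 lower. The median log2 changes of the lists were -0.21, -0.12 and -0.17. In the ATF7 knockout 0 were called, with medians of 0.06, -0.03 and -0.06, where 0 of 13208 genes were called higher and 33 lower. In the JDP2 knockout 1 was called, where 2 of 13208 genes were called higher and 87 lower. It was NCAPD2, a condensin subunit that compacts chromosomes in mitosis. NCAPD2 had 3364, 2258, 3108 and 3647 normalized counts in the JDP2 libraries, against 6978 and 8503 in the knockout control. It was below both controls in 4 of 4 libraries, with a log2 change of -1.34 ± 0.25 (SE; limma adjusted p = 0.0335). The wild type (4162) and shRNA control (3949.8 and 4307) libraries also lay below the knockout control. The medians of the 3 lists for JDP2 were 0.05, -0.16 and -0.24. Of the replication genes, none of which was called, RECQL4 (1.62 in JDP2 knockout) and POLE4 (1.32 in JDP2 knockout) had the largest values, and of the regulators LIN37, a DREAM subunit (-2.47 in JDP2 knockout and -1.82 in ATF7 knockout), and TFDP1, the E2F partner (-1.64 in ATF7 knockout, limma adjusted p = 0.0527). TFDP1 had 15054, 10909.7, 9089 and 8261 normalized counts in the ATF7 libraries, against 33997 and 31943 in the knockout control. The shRNA control (11317 and 11404) and wild type (9571) libraries lay within the ATF7 range. LIN37 had 19, 13.1, 10.2 and 5.61 in the JDP2 libraries and 18.3, 16.3, 22 and 15.6 in the ATF7 libraries, against 56.5 and 76.4 in the knockout control and 27.9 and 30.9 in the shRNA control. RECQL4 had 21167, 78334, 16354 and 27071 in the JDP2 libraries, against 12121 and 7478 in the knockout control, and clone 1 replicate 2 was its highest library.

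In the authors' deposited tables, which set each target against controls by DESeq2, 5 of the 52 genes were called for the knockdown at an adjusted p under 0.05, where 17.5% of 13048 genes were. They were MCM2 (-0.78), MCM4 (-0.61), MCM7 (-0.74), PLK1 (-0.68) and CCNB2 (-0.48), all lower. For the ATF7 knockout the authors' deposited table called 0 of 52 (0.315% of all genes). For the JDP2 knockout the authors' deposited table called ORC1 (-0.95) and CDC45 (-0.81) as lower and CDT1 (1.16) as higher, where 12.1% of all genes were called. Genes in which every library of a target lay beyond all 5 controls were CCNE2 above and MCM2 and CCNB2 below for the knockdown, where 6.06% of all genes were above and 5.11% below. For ATF7 they were ORC6, CCNA2 and UBE2C above and BUB1B below (2.2% and 2.54% of all genes). For JDP2 they were MCM5, TYMS, CDT1, ORC6 and CENPA above and ORC1 and CDC45 below (7.34% and 6.19% of all genes).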

How the data were processed

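RNA of 19 THP1 libraries was analysed. The deposited signal values are read counts per gene divided by 1 DESeq2 size factor per library by the authors, and reads were counted on hg38 with featureCounts, per the submitters' processing notes. For the aligner, annotation, strand setting and tool versions the entry is: not given in the sources used here. The authors' deposited comparison tables hold log2 fold changes with standard errors, p-values and a Wald statistic, a score whose sign was opposite to the deposited log2 fold change, so directions were read from the fold change. Whole reads were recovered from the deposited values, and the normalized value of a gene is a level with no correction for length unless given per kilobase.

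Values were tested as log2(value + 1) with limma 3.58.1 (trend) in R 4.3.3, for genes averaging 10 or more in the fitted libraries, with Benjamini-Hochberg adjustment over all genes. This scale shrinks the fold changes of genes with low values. Each arm was fitted alone, with 1 coefficient per group, and the interaction over both arms. Alternatives were edgeR 4.0.16 and DESeq2 1.42.0 on recovered reads, other pseudocounts, filters and scalings, array weights, a replicate block, all 5 controls and libraries left out. The fits were tested on simulated data. Tables and plots used Python 3.11.15 with pandas 2.3.3, numpy 2.4.6, scipy 1.17.1 and matplotlib 3.10.9. Wilson intervals cover counting error only. The genes and lists were chosen with earlier results of these data known. Genes called in a comparison have values given in every library of that comparison. So do the 3 of each class with the largest absolute log2 change against each control. Values of MCM2, PCNA, MKI67 and CDK1 are given in both arms. Promoter letters were matched in RefSeq sequences of GRCh38.p14, and gene positions are from GENCODE v29 on GRCh38, the same build as hg38. One marker gene and the sum of its list are not reported here.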

Additional observations from a re-analysis of the deposited data

Results flagged for a closer look

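MCM2, PCNA, MKI67, CDK1, the genes with the largest changes against each control and the class levels were checked within groups. The groups were the knockdown, the ATF7 knockout and the JDP2 knockout, with 4 to 6 libraries each. In these 54 checks, 7 values lay further from the rest of their group than Dixon's 95% limit. A single check passes that limit by chance about 1 time in 20. The checks share the same libraries, and most of the genes were picked for large changes in these data. The 7 therefore cannot be set against that rate. In the knockdown group, shRNA 1 replicate 3 was low for 5 genes, with 1431 normalized counts for CDT1, 3757 for MCM2, 1255 for AURKB, 3309 for PLK1 and 755 for UBE2C. CDC45 was high in shRNA 1 replicate 1 of that group (1711). CDC45 was also high in JDP2 knockout clone 1 replicate 1 (929.8) among the 4 JDP2 libraries, and still below all 5 controls.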

How the results depend on the processing

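The number of the 52 genes called was 0 in all 8 comparisons, and percentages below are the share of all genes called in the same fit. For the knockdown it became 1 with array weights (11.9%) or all 5 controls (12.3%) and 2 without the 3 libraries that stood apart (10.1%). For the ATF7 knockout it became 1 with DESeq2 (2%), with the replicate block (0.56%) and without the 3 libraries (0.753%). For the JDP2 knockout it became 1 with equal totals (0.971%), quantile normalization (0.712%), array weights (1.4%) or the replicate block (1.22%). With all 5 controls it became 3 (7.08%) and with DESeq2 5 (5%). Between hairpins it became 13 (31.1%) with array weights, whose estimation stopped before converging, and between ATF7 clones 1 with DESeq2 (1.82%). For the interaction it became 1 with DESeq2 (CCNB1, 5.92%) and 1 with the replicate block (CDT1, 5.1%). Leaving out each library in turn gave 0 to 1 for the ATF7 knockout (1 without JDP2 knockout clone 1 replicate 2, 0.753%) and 0 in the other 7 comparisons. Over all genes, the deviations of same-numbered libraries correlated from -0.29 to 0.42 over 7 pairs in the knockdown arm (3 over 0.1). In the knockout arm they correlated from -0.58 to 0.58 over 20 pairs (8 over 0.1). Groups of that arm have 2 libraries, whose deviations mirror each other, so each value occurs in 2 of those pairs. Its pairs with different numbers also ran from -0.58 to 0.58, with 8 of 20 over 0.1. Of the genes checked within groups above, CDT1, AURKB, PLK1, CCNB1, CCNB2, CDK1, UBE2C and NUSAP1 were higher in replicate 2 of every knockout clone. CCNE2, FOXM1 and MKI67 were lower in replicate 2 than in replicate 1 of every clone. MCM2, ORC1, CDC45 and PCNA differed in direction between clones. The same was not counted over all genes. Pairing was taken as shown only with every pair over 0.1, so the replicate block stayed an alternative. With the block, the knockdown medians were -0.40 for S-phase and -0.16 for mitotic genes. The S-phase median of the JDP2 knockout was -0.22 with equal totals and -0.11 with quantile normalization, and its mitotic median -0.37 with equal totals, where the median of all genes moved to -0.22. The mitotic median of JDP2 against ATF7 was -0.27 with equal totals and 0.012 without the 3 libraries. Leaving out each library in turn, the S-phase medians ran from -0.51 to -0.20 for the knockdown, -0.135 to 0.075 for ATF7, -0.05 to 0.12 for JDP2 and -0.02 to 0.11 for JDP2 against ATF7. The mitotic medians ran from -0.24 to 0.04, -0.21 to 0.16, -0.356 to 0.018 and -0.145 to 0.012 in the same order. With a window from 100 bases before to 50 after the start, E2F letters stood in 5.56% of mitotic promoters and CHR letters in 0% of S-phase promoters. Over all promoters the shares with that window were 7.28% for E2F letters and 7.43% for CHR letters. The cause was not tested.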
